A study of Hylyphantes graminicola with 5 samples.

Results

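DH31_1, DH31_2 and Calcitonin_2 are 3 genes for precursors of calcitonin-type neuropeptides, among the 71 neuropeptide precursor genes that the study listed and the 19195 genes counted in the brain of the sheet-web spider *Hylyphantes graminicola*. They were found by their gene identifiers, which are evm.TU.CTG-308.2 for DH31_1, evm.TU.CTG-674.24 for DH31_2 and evm.TU.CTG-508.11 for Calcitonin_2. The rule holds no measured value, but the members were chosen with earlier results of these data known. The samples were 5 single-cell libraries of dissected brains of wild-caught adults of mixed age, 3 from females and 2 from males, each from 35 to 40 pooled brains, with no treatment. The number of brains in a pool limits what a library can stand for, since a replicate is a pool and not an animal. Each captured messenger RNA molecule carried a unique molecular identifier (UMI), so the values are counts of molecules per gene and cell. A level is the summed UMIs of a gene per 1000000 UMIs of the same cells (CPM), and the libraries are the replicates.

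DH31 was named as a diuretic hormone of insects and is the insect relative of vertebrate calcitonin. In *Drosophila* it acts through a receptor of the secretin-like family, stimulates fluid secretion by the Malpighian tubules and is made by clock neurons and by endocrine cells of the gut, where it has been tied to sleep, temperature preference and feeding. Many arthropods other than *Drosophila* also carry genes for peptides that resemble calcitonin more closely, with an amino-terminal ring closed by a pair of cysteines. In the spider, both kinds are present in more than 1 copy, and the further calcitonin-type genes Calcitonin_1 and Calcitonin_3 were read beside the members.

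The predicted proteins in the study's supplementary list show how far the copies have separated, which bears on how well their counts can be told apart. The precursors of DH31_1 and DH31_2 had 110 and 109 residues, of which 51 of 105 aligned positions (48.6%) were identical. The peptide between the cleavage sites had 31 residues in both, and 24 of these (77.4%) were identical. Calcitonin_1 and Calcitonin_2 each had 144 residues and differed at 2 of them, at positions 85 and 89 counted from the first residue. Calcitonin_2 and Calcitonin_3 shared 32 of 93 aligned positions (34.4%). Counted over the whole precursor, both DH31 proteins and Calcitonin_3 held 2 cysteines, and Calcitonin_1 and Calcitonin_2 held 4. In the DH31 precursors they lay in the amino-terminal stretch, outside the peptide between the cleavage sites. In Calcitonin_3 they lay in the later part of the precursor, so the equal counts do not mean an equal arrangement. Reads that match more than 1 gene are not counted by the counting program, so counts of Calcitonin_1 and Calcitonin_2 are uncertain. The same holds for other copies named below. The predicted proteins of the precursors Elevenin_1 and Elevenin_2 are nearly identical, and those of the RYamide precursors RYa_2 and RYa_3 are identical.

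The libraries held 40233 barcodes, of which 31145 (77.4%) were kept as cells, between 3296 and 8139 per library, and the totals ranged from 12269605 UMIs in female replicate 1 to 35943668 in female replicate 3. Neurons made up 28648 kept cells (92.0%), and 13 of 13 class markers were highest in the class they mark. The study describes cluster numbers for all its cells, but those at hand here covered 1998 cells, all of female replicate 3. These cells are called known below. Their numbers were carried to the other cells by similarity of expression, with the DH31 and calcitonin-type genes left out. When known cells were held out, 1503 (75.2%) regained their number and 1990 their class. Of the kept cells, 2186 (7.02%) were called doublets, and 88 kept barcodes occurred in more than 1 library.

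All 3 genes were among the more abundant transcripts of the brain, but the same kind of level was carried by very different numbers of cells. Over all kept cells the level of DH31_1 was 3492, 3133 and 3194 CPM in female replicates 1, 2 and 3 and 4121 and 3854 CPM in male replicates 1 and 2. DH31_1 varied least, with a mean of 3559 ± 425 CPM (SD, n = 5), and both male libraries lay above all 3 female libraries. The level of DH31_2 was 5180, 5465 and 2723 CPM in the females and 5756 and 3175 CPM in the males. It averaged 4460 ± 1403 CPM, and the sexes overlapped. The level of Calcitonin_2 was 939, 758 and 1227 CPM in the females and 3611 and 576 CPM in the males. Male replicate 1 stood above all others and male replicate 2 below all others, and the mean was 1422 ± 1247 CPM. Within a library, DH31_1 took rank 3 to 6 among the 71 precursors, DH31_2 rank 3 to 7 and Calcitonin_2 rank 7 to 24, on summed UMIs, which are not corrected for transcript length. Of the other copies, Calcitonin_1 lay between 33.4 and 204 CPM and Calcitonin_3 between 174.0 and 1516 CPM.

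At least 1 UMI of DH31_1 was seen in 10404 cells (33.4%), of DH31_2 in 5415 (17.4%) and of Calcitonin_2 in 3673 (11.8%). A share at or below that of cells which should lack the gene is background. In neurons 34.2 ± 3.74% of cells had a UMI of DH31_1, against 15.7 ± 3.04% of hemocytes (SD, n = 5), which are blood cells and should lack a neuropeptide, at median depths of 2699 and 2252 UMIs per cell. For DH31_2 the shares were 17.4 ± 5.97% and 10.5 ± 6.29%, and for Calcitonin_2 they were 12.3 ± 2.76% and 4.50 ± 2.34%. With each cell thinned to 2000 UMIs the shares in neurons and hemocytes were 29.3% and 14.0% for DH31_1, 12.5% and 8.26% for DH31_2 and 10.5% and 2.47% for Calcitonin_2. A cell was therefore called rich in a gene only from 10 UMIs of it. Rich cells numbered 3338 (10.7%) for DH31_1, 640 (2.05%) for DH31_2 and 1162 (3.73%) for Calcitonin_2. Of them 97.7% to 98.5% were neurons, against 92.0% of all kept cells. Rich cells held between 92.5% and 98.9% of the UMIs of each gene in every library. For DH31_1 they were 1.06% to 4.45% of hemocytes per library, against 9.85% to 12.9% of neurons. In glia they were 0.610% to 5.16% per library. In fat body cells they were up to 8.89%, in male replicate 2, where this class had 45 cells. The part of background in these shares was not tested. In hemocytes the share was at most 0.262% for DH31_2 and 0.798% for Calcitonin_2. In glia it was higher, at up to 2.55% for DH31_2 and 2.98% for Calcitonin_2, both in male replicate 1. Neurons of that library had 2.59% and 4.69%. Fat body cells there, 24 in number, had 4.17% for DH31_2.

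**Figure D1:**
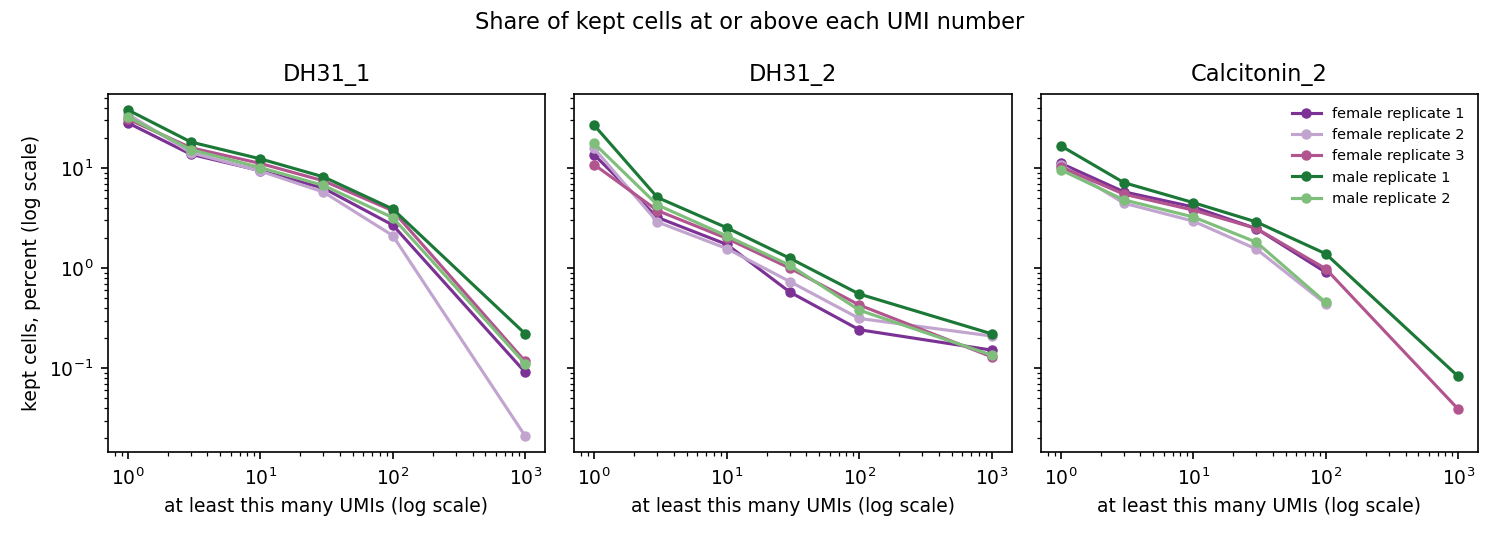
Share of kept cells (percent, log scale) with at least 1, 3, 10, 30, 100 and 1000 UMIs of each gene (log scale), with 1 line per library. The lines of DH31_1 fall steeply beyond 100 UMIs, those of DH31_2 flatten there, and Calcitonin_2 reached 1000 UMIs only in female replicate 3 and male replicate 1.

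DH31_1 was a gene of many cells at a moderate level. Rich cells made up 9.44%, 9.36% and 11.1% of female replicates 1, 2 and 3 and 12.4% and 10.1% of male replicates 1 and 2. Their median count of DH31_1 lay between 39.5 and 53 UMIs, and 1023 cells had 100 or more. Beyond 1000 UMIs there were 38 cells, which held 12.8% of its UMIs, and in none of them did the gene reach 50% of the cell. DH31_1 had the third highest number of rich cells among the 71 precursors.

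DH31_2 was a gene of few cells at an extreme level. The 52 cells with 1000 or more UMIs of it, 0.167% of those kept, held 92.1% of its UMIs. Female replicates 1, 2 and 3 had 5, 10 and 10 of them and male replicates 1 and 2 had 16 and 11, so that every library had some. Set against the 35 to 40 brains in each pool, between 0.125 and 0.457 such cells were recovered per brain. Only 9 cells had from 300 to under 1000 UMIs of DH31_2 and 5 had from there to under 3000, whereas 47 had 3000 or more. The group of 1000 or more UMIs thus stood apart from the other DH31_2 cells, and the boundary was set after the counts were seen. In the median such cell DH31_2 made up 58.6% of all UMIs, with a range from 8.77% to 79.6%, and in 35 of the 52 it exceeded 50%. The highest count was 26080 of 44236 UMIs of 1 cell of male replicate 1. Over all 71 precursors, 15 had any cell in which they exceeded 50% of the UMIs, 150 cells in all. DH31_2 was second in that number, behind CHH/ITP_2, a precursor of the crustacean hyperglycemic hormone and ion transport peptide family, with 43 cells.

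Calcitonin_2 lay between these patterns, except for a handful of cells. Rich cells made up 4.10%, 2.96% and 3.81% of the female libraries and 4.53% and 3.26% of the male libraries. In most of them the gene stayed under 100 UMIs, and 256 cells had 100 or more but under 1000. A set of 6 cells carried 8317 to 21460 UMIs, 5 in male replicate 1 and 1 in female replicate 3, and the next cell had 1443. Without these 6 cells the level was 1041 CPM in male replicate 1 and 817 CPM in female replicate 3, and male replicate 1 still had the highest value.

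**Figure D2:**
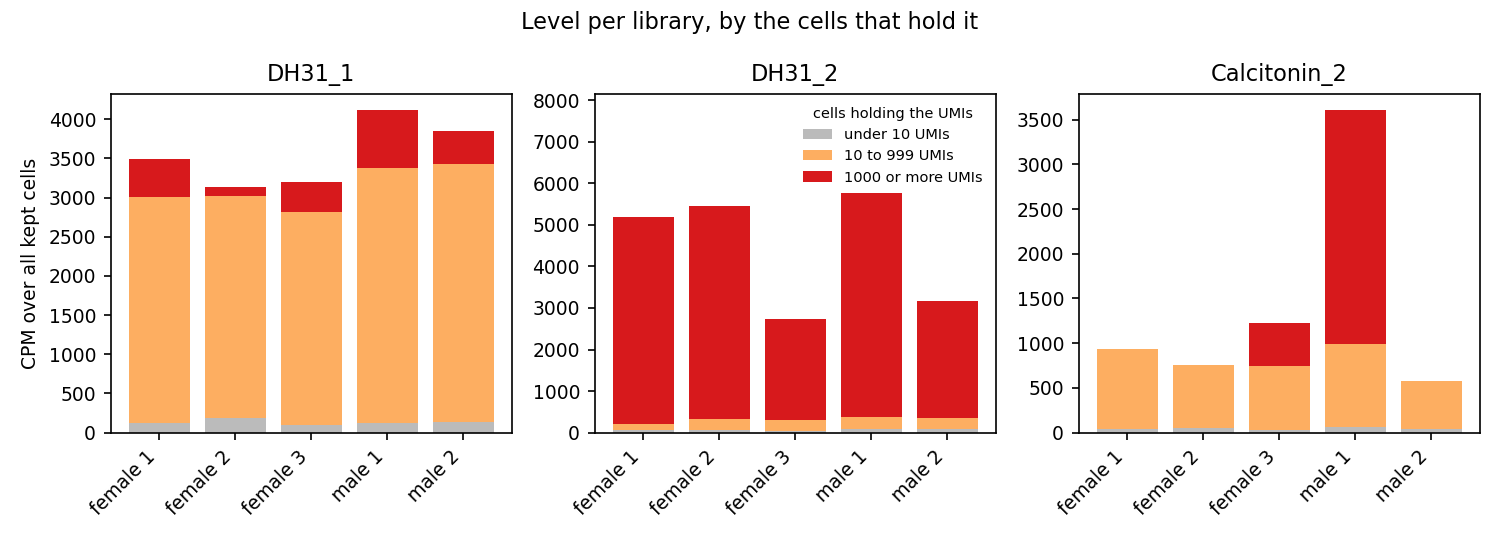
Level of each gene per library (bars, CPM over all kept cells), divided by the cells that hold the UMIs: under 10, 10 to under 1000 and 1000 or more UMIs of that gene. Cells with 1000 or more UMIs carried between 88.5% and 96.0% of DH31_2 per library, but 72.6% of Calcitonin_2 in male replicate 1, 39.5% in female replicate 3 and none in the other libraries.

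The comparison between sexes asks whether the brain of 1 sex makes more of these messengers. None of the 3 genes passed the test. On UMI sums per library, edgeR's quasi-likelihood test called 3 of 13875 genes (0.0216%) at an adjusted p under 0.05, of which 0.00721% were higher and 0.0144% lower in males, and 331 had an unadjusted p under 0.05. DH31_1 differed by 0.26 ± 0.32 on the log2 scale, males over females (SE, adjusted p = 1.00, edgeR, as for the other members). DH31_2 differed by -0.062 ± 0.47, and the 95% intervals of these differences ran from -0.37 to 0.89 and from -0.98 to 0.86. Calcitonin_2 differed by 1.09 ± 0.60, with an interval from -0.088 to 2.26, and this rested on male replicate 1. Without male replicate 1 the value was -0.73, and with all cells of 1000 or more UMIs of a member left out, an alternative chosen after the data were seen, it was -0.070. For DH31_2 leaving out those cells turned the value to 0.28. None of 70 precursors tested was called, and 12 had an unadjusted p under 0.05 in edgeR.

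Rich cells showed no difference between the sexes that the design could call either. Males minus females, the share of rich cells differed by 1.28 percentage points for DH31_1 (exact permutation p = 0.3), by 0.556 for DH31_2 (exact permutation p = 0.2) and by 0.271 for Calcitonin_2 (exact permutation p = 0.8), two-sided, where 3 against 2 libraries cannot give a p under 0.1. The adjusted values over the 3 comparisons were 0.45, 0.45 and 0.8. For DH31_2 both male libraries, at 2.54% and 2.10%, lay above the 3 female libraries, at 1.73%, 1.57% and 1.99%. For DH31_1 and Calcitonin_2 the sexes overlapped.

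Among the clusters of the study, 40 with enough known cells could be ranked, 30 of them neuronal, and the genes differed in how tightly they kept to a cluster. DH31_1 was widespread. Its highest level was in cluster 13, with 23877, 18577 and 15356 CPM in female replicates 1, 2 and 3 and 14118 and 4128 CPM in male replicates 1 and 2, and a mean of 15211 ± 7254 CPM. Cluster 12 followed with 12138 ± 1343 CPM and was the steadier of the pair, since each library lay between 10681 and 14321 CPM. Clusters 29, 3, 7 and 22 came next, at 8327 ± 14903, 7669 ± 2368, 6863 ± 1765 and 6661 ± 4413 CPM, and the value of cluster 29, which is not neuronal, came mainly from male replicate 1, at 34821 CPM. In all 39 steps of this order the neighbours differed by less than the larger of their SDs. With cells of 1000 or more UMIs left out, cluster 12 led and cluster 13 was second, at 10364 and 10050 CPM. Only 38.2% of the held-out cells of cluster 13 and 32.7% of cluster 12 regained their number, so the assignment of single cells to this pair is weak.

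DH31_1-rich cells were found in 40 of 40 clusters and made up over 5% of the cells in 27. The largest number, 775 cells or 23.2% of all, lay in cluster 1, where 22.8% of the cells were rich. The highest share was in cluster 38, with 54.5% of 88 cells, but the libraries differed there. Female replicate 1 had 0 of 12 cells rich, which allows a share of up to 25% at 3 counts, and female replicate 2 had 27.3% of 11 cells, against 65.0%, 72.7% and 69.6% in female replicate 3 and male replicates 1 and 2.

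DH31_2 was set apart by cluster 17, in which it had 198630, 163050 and 113260 CPM in female replicates 1, 2 and 3 and 238129 and 118401 CPM in male replicates 1 and 2. The mean of 166294 ± 53204 CPM was far above that of the next cluster, 38, with 20080 ± 25736 CPM, and the gap was 2.75 times the larger SD. That level came from 39 of its 490 cells, those with 1000 or more UMIs. Without such cells cluster 17 had 1328 ± 1854 CPM. Pooled over libraries without such cells, cluster 38 had 1373 CPM and cluster 17 had 1009 CPM. None of the 52 cells was among those with a cluster number at hand here. The known cells of cluster 17 in female replicate 3 had 930 CPM, which was rank 4 behind cluster 38 at 3646 CPM. When all 71 precursors were left out of the genes that carry cluster numbers, 36 of the 52 cells fell to cluster 7 in place of 17, and cluster 17 kept 33 cells. The cells are therefore described here by their counts rather than by a cluster. Single cells of this kind also set the levels of DH31_2 in hemocyte cluster 25, fat body cluster 24 and cluster 29, each with 1 cell of 1000 or more UMIs. Those of clusters 25 and 24 were called doublets, and that of cluster 29 was not.

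The moderate DH31_2 cells were found elsewhere. Cluster 18 held 86 DH31_2-rich cells, 22.9% of its cells, of which 1 exceeded 1000 UMIs. Per library its rich share was 19.2%, 7.14% and 19.3% in the females and 28.6% and 28.97% in the males. Cluster 38 had the highest share, 28.4%, again with 0 of 12 cells in female replicate 1. Below cluster 17, neighbours in the order of mean levels differed by less than the larger SD in all 38 steps.

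Calcitonin_2 had higher shares of rich cells in its leading cluster than DH31_1 and DH31_2 had in theirs. In cluster 33, 86 of 102 cells were rich, and the shares in female replicates 1, 2 and 3 were 100%, 77.8% and 72.7% and in male replicates 1 and 2 were 91.3% and 87.5%. Its level there was 9898 ± 1676 CPM and no cell reached 1000 UMIs. Cluster 18 had 54.9% rich cells, between 49.5% and 68.1% per library, at 4764 ± 1395 CPM. By mean level clusters 7 and 11 stood between them, at 7667 ± 11751 and 5728 ± 9346 CPM, but their medians over libraries were 1186 and 1663 CPM and male replicate 1 alone reached 27844 and 22423 CPM. The step from cluster 18 to cluster 13, which had 2424 ± 1273 CPM, was larger than either SD, and 37 of 39 steps were not. Of the held-out cells of cluster 33, 50% regained their number, and 6 of its cells were known ones.

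**Figure D3:**
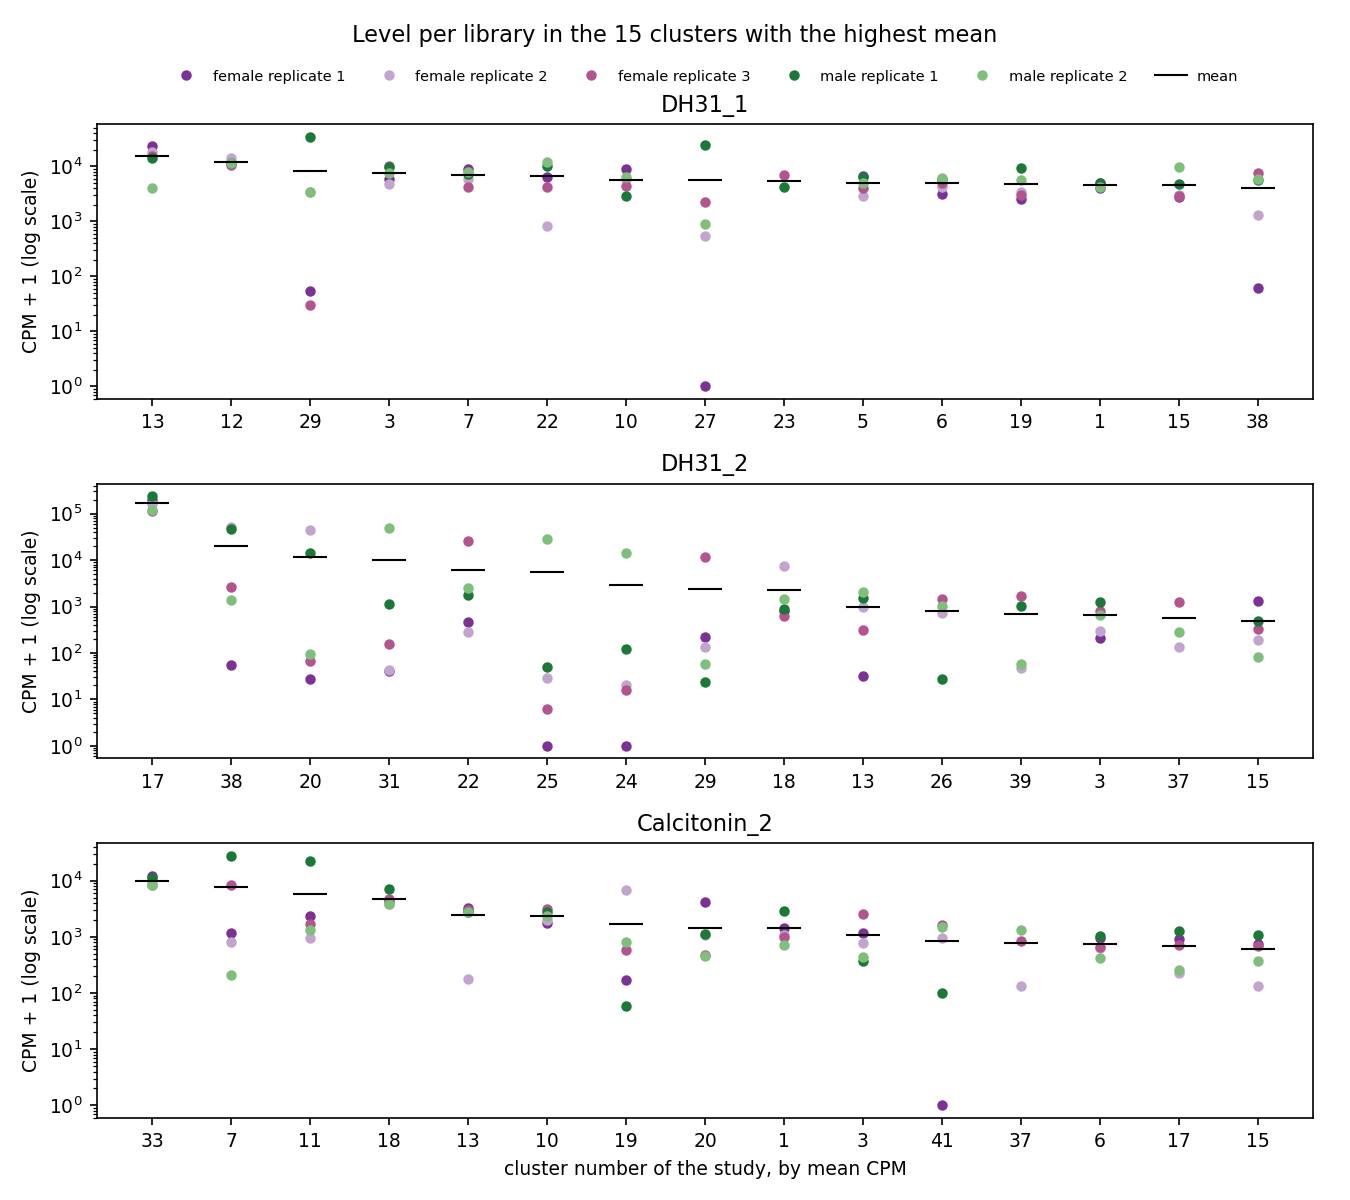
Level of each gene (CPM + 1, log scale) in the 15 clusters with its highest mean level, ordered by that mean, with 1 point per library and a bar for the mean of the libraries. DH31_2 lay between 113260 and 238129 CPM in cluster 17, Calcitonin_2 lay between 8221 and 11933 CPM in cluster 33, and DH31_1 showed no such step.

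Over the 40 clusters, the gene whose mean levels ran most like those of Calcitonin_2 was Calcitonin_1, with a Pearson r of 0.88 on log2(CPM + 1), followed among named genes by FGRL1_S2 at 0.79. For DH31_2 the closest named genes were the precursors Elevenin_1 at 0.64 and Elevenin_2 at 0.60, whose predicted proteins are nearly identical. For DH31_1 they were TM14C_S1 at 0.83 and Nrt_S1 at 0.82. Among the members r was 0.40 between DH31_1 and DH31_2, 0.47 between DH31_1 and Calcitonin_2 and 0.26 between DH31_2 and Calcitonin_2. These are descriptions of 40 points that share libraries and depth, from 6112 eligible genes.

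The cells with 1000 or more UMIs of DH31_2 also carried elevenin, a peptide first described in molluscs. Every one of the 52 cells had at least 10 UMIs of Elevenin_2, with a lowest count of 22, a median of 371 and a highest of 1609. The median was 630 UMIs in female replicate 1 and 360 to 372 UMIs in female replicate 3 and both male libraries, and it was lowest in female replicate 2, where the highest cell had 1114. Elevenin_1 reached 10 UMIs in 46 of the 52, with a median of 46. Its predicted protein is nearly identical to that of Elevenin_2, so it cannot be read as a separate partner. Among neurons, 100% of the 49 such cells were Elevenin_2-rich, against 10.8% of 576 neurons with 10 or more but under 1000 UMIs of DH31_2 and 2.11% of 28023 neurons with fewer. The reverse did not hold, since the 52 cells were 7.19% of the 723 Elevenin_2-rich cells, and each library held a cell with more Elevenin_2 outside this group, up to 8395 UMIs in female replicate 3.

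Other precursors were less regular in these 52 cells. The short neuropeptide F precursor sNPF reached 10 UMIs in 23, the pyrokinin precursor PK_2 in 20 and the proctolin precursor Proc in 14. DH31_1 was rich in 6 of the 52, and of the neurons among them in 10.2%, against 41.1% of the neurons with 10 or more but under 1000 UMIs of DH31_2. Apart from DH31_2, the median cell of the group held 6184 UMIs, and elav and Syt1, which mark neurons, were detected in 46 and 51 of the cells. Called doublets made up 7.69% of the group, close to the 7.02% of all kept cells. The median mitochondrial share was 6.74%.

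The cells with 1000 or more UMIs of the other members had no such partner. Of the 38 DH31_1 cells 1 was Elevenin_2-rich, 12 had 10 or more UMIs of the myoinhibitory peptide precursor Mip and 11 of sNPF, and they were spread over 13 clusters. DH31_2 also reached 10 or more UMIs in some of these cells, with up to 434 UMIs in a cell of male replicate 2. Of the 9 Calcitonin_2 cells none was Elevenin_2-rich and 5 had 10 or more UMIs of Calcitonin_1. In the 6 highest of these, Calcitonin_1 had 3 to 17 UMIs, or 0.0288% to 0.120% of the count of Calcitonin_2.

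**Figure D4:**
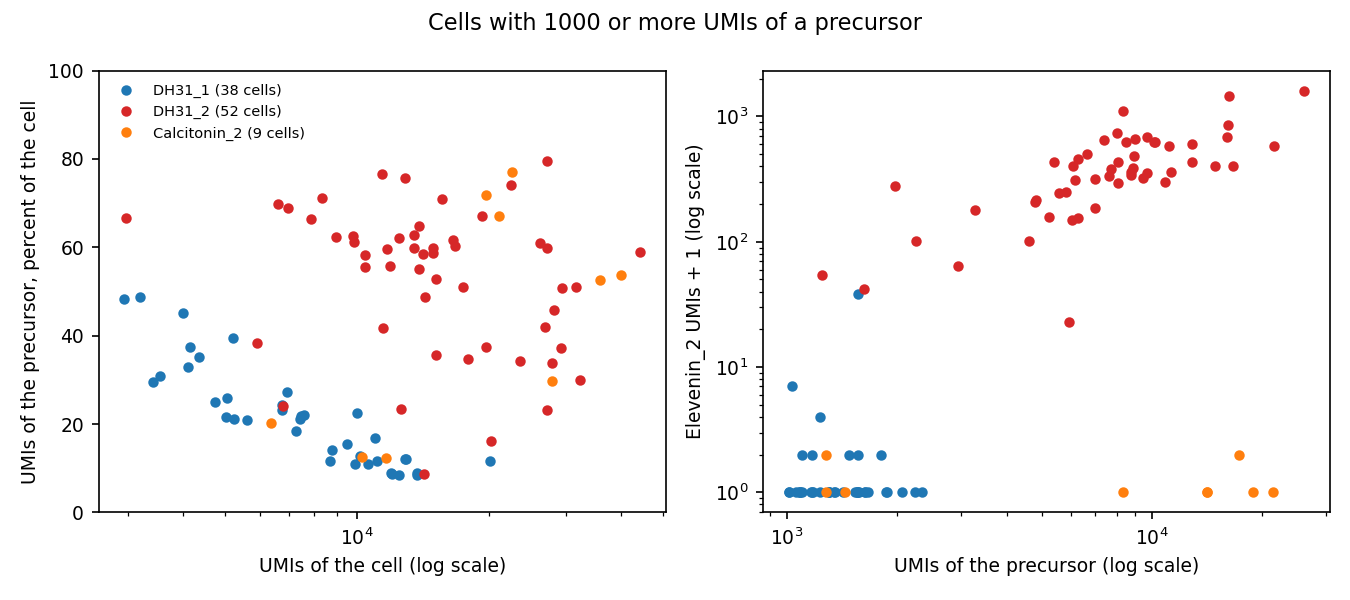
Cells with 1000 or more UMIs of DH31_1 (38 cells), DH31_2 (52) or Calcitonin_2 (9). Left, the precursor's percent of the cell's UMIs against all UMIs of the cell (log scale); right, Elevenin_2 UMIs + 1 against UMIs of the precursor (log scales). The DH31_2 cells had a median share of 58.6% and 22 or more UMIs of Elevenin_2, whereas 1 DH31_1 cell and no Calcitonin_2 cell had 10 or more.

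To see what else rich neurons expressed, UMIs of rich neurons were summed per library and set against all other neurons of the same library, with library in the model and the gene that chose the cells left out. Rich neurons were deeper than the others, with medians of 3982 against 2591 UMIs for DH31_1, 5667 against 2667 for DH31_2 and 4872 against 2650 for Calcitonin_2. Called doublets made up 15.2% against 5.89%, 14.4% against 6.78% and 14.8% against 6.62%. The median mitochondrial share was 16.6% against 21.5%, 14.9% against 21.05% and 15.4% against 21.2%. The part of the mitochondrial share in the results was not tested, nor that of depth and doublets, but counts with called doublets or with cells under 2000 UMIs left out stayed within 1.5 times of those below. The 3 hemocyte and 3 fat body markers were not called in any of these comparisons, although 1 hemocyte marker was too low to be tested for Calcitonin_2. Of the 3 glia markers Eaat2 fell by 0.58 in DH31_1-rich and rose by 0.52 in Calcitonin_2-rich neurons, while the summed level of the list lay at 12.7 to 28.98 CPM in DH31_1-rich, 13.1 to 33.0 CPM in DH31_2-rich and 20.04 to 39.2 CPM in Calcitonin_2-rich neurons, against 14.97 to 39.4 CPM over the sets of other neurons.

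DH31_1-rich neurons differed from other neurons by many small changes. Of 12282 genes, edgeR called 12.4%, 617 higher (5.02%) and 906 lower (7.38%), and with library size alone in place of TMM scaling 1149 higher and 620 lower. Of 63 other precursors tested, 8 were higher and 17 lower, and their median change was -0.29 on the log2 scale against -0.0040 over all genes. KYMGLa was at 307, 163 and 270 CPM in rich neurons of female replicates 1, 2 and 3 and at 392 and 228 CPM in those of male replicates 1 and 2. In the other neurons of the libraries it lay between 66.0 and 158 CPM. It was higher in 5 of 5 libraries, by 1.09 ± 0.08 (log2, SE, edgeR adjusted p = 5.0e-06). Proc, the precursor of proctolin, which modulates muscle and neuron activity in arthropods, rose by 1.12 ± 0.23 and was higher in 5 of 5 libraries, though DESeq2 gave an adjusted p of 0.21, and Dsk, the sulfakinin precursor, by 1.34 ± 0.34 in 4 of 5. RYa_2, RYa_3, GPA2_1 and NTL rose by 0.65 to 0.85 in 5 of 5, where RYa_2 and RYa_3 encode identical predicted proteins. PGWX3GLa_2 was also called, on 19 UMIs in all.

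The insulin-like precursors were scarce in DH31_1-rich neurons. Few kept cells of any kind were rich in them, 18 in ILP_1, 9 in ILP_2 and 58 in ILP_3. The part of this scarcity in their falls was not tested. ILP_1 and ILP_2 had 0 UMIs in DH31_1-rich neurons, against 8.33 and 4.06 CPM (pooled) in other neurons. These values are 51.6 and 25.1 times a floor of 3 UMIs over the group. The floor covers counting error only. Cells rich in them held 97.5% and 83.4% of their UMIs over all kept cells, so these folds are not lower bounds. The call of ILP_1 was lost in DESeq2, at an adjusted p of 0.16. ILP_3 fell by 3.29 ± 0.21 on the log2 scale, to 4.78 ± 3.42 from 57.6 ± 33.8 CPM. Over all kept cells 40, 14 and 143 cells were rich in CCAP_1, Trissin and NPF, the neuropeptide F precursor. In DH31_1-rich neurons these precursors fell by 3.99 ± 1.20, 3.43 ± 0.73 and 2.95 ± 0.63, each with 1 of 5 libraries higher. These 3 calls were lost with a threshold of 3 UMIs, at -3.26, -1.34 and -1.56 for CCAP_1, NPF and Trissin. That of NPF was also lost without female replicate 2, at -2.79, and that of CCAP_1 without female replicate 2, female replicate 3 or male replicate 2, at -2.83, -2.97 and -3.39, and likewise at 30 UMIs and in cells of 2000 or more UMIs, at -4.01 and -4.19. DH31_2 was at 3937 ± 3791 CPM in DH31_1-rich and 4816 ± 1801 CPM in other neurons and was not called. Calcitonin_2, at 1750 ± 1539 against 1454 ± 1236 CPM, was not called either, but without female replicate 3 it was, at 0.37 (edgeR adjusted p = 0.020).

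Outside the precursors, the gene with the smallest p among those higher in 5 of 5 libraries was acj6, which encodes a POU-domain transcription factor that sets odorant receptor choice and transmitter identity in *Drosophila*. It was at 104, 70.5 and 70.97 CPM in rich and 29.7, 27.1 and 24.2 CPM in other neurons of the females, and at 52.8 and 30.4 against 14.3 and 12.4 CPM in the males. Rich neurons lay above the other neurons of their own library throughout, by 1.53 ± 0.08 (log2, edgeR adjusted p = 4.0e-07). VAChT, the vesicular acetylcholine transporter, rose by 0.41 ± 0.07 in 5 of 5 libraries, and Gad1, which makes GABA, fell by 0.84 ± 0.21 and was lower in 4 of 5. Fer2, the other transcription factor read, fell by 0.91 ± 0.19 in 5 of 5, and its call was lost at 30 UMIs and without female replicate 3, at -0.74 and -0.97. The call of Gad1 was lost without any 1 of the 3 female libraries, at -0.59 to -0.77. RGRF1, IN80B, Buffy, OTOF and FKB12 rose by 0.54 to 0.65, and the small heat shock genes Hsp67Ba and HSPB1_S2 by 0.27 and 0.36, in 5 of 5 libraries. The neuron markers brp, nSyb, Syt1 and elav fell by 0.18 to 0.30. Of 5 mushroom body markers, rut rose by 0.16 and bsk and CG17221 fell by 0.24 and 0.44.

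In DH31_2-rich neurons edgeR called 433 of 11866 genes (3.65%), evenly split with 1.82% higher and 1.83% lower. Without male replicate 1 it called 259. With library size alone it called 173 higher and 871 lower, and the median over all genes moved from -0.041 to -0.17. Here 8 of 61 other precursors were higher and 23 lower, with a median of -0.62 against -0.041 over all genes. The largest rise was that of NPF, at 5267, 49936 and 26527 CPM in rich neurons of female replicates 1, 2 and 3 and 19763 and 31073 CPM in those of male replicates 1 and 2. In the other neurons it was at 966, 128, 439, 772 and 207 CPM. The change of 5.97 ± 0.61 (log2, SE, edgeR adjusted p = 2.6e-06) rested on 22 cells rich in both, 1 to 7 per library and 15.4% of all NPF-rich cells. None of these had over 134 UMIs of DH31_2, so that they were not among the 52 cells with 1000 or more.

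DH31_1 rose in DH31_2-rich neurons by 1.56 ± 0.14, to 7675, 5990 and 8285 CPM in the females and 11054 and 18372 CPM in the males, against 3239 to 3812 CPM in the other neurons. The groups did not overlap, and the edgeR adjusted p was 7.9e-07. AT, the allatotropin precursor, rose by 2.43 ± 0.27 in 5 of 5 libraries and Proc by 1.59 ± 0.28 in 4 of 5, and the call of Proc was lost in DESeq2, at an adjusted p of 0.20. Elevenin_2 rose by 2.82 ± 0.18 in 5 of 5 and Elevenin_1 by 2.23 ± 0.34 in 4 of 5. Both calls were lost when the cells with 1000 or more UMIs were left out, at 0.39 and 0.093, whereas AT remained at 2.58. FMRFa_2 and EH_3 were also called, on 80 and 11 UMIs.

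The largest falls in DH31_2-rich neurons were those of CCAP_1 by 5.56 ± 0.45, Trissin by 5.50 ± 0.39 and CCHa_1 by 5.08 ± 0.33. Next came EH_2 by 4.57 ± 0.30 and GnRH, of the gonadotropin-releasing hormone type, by 4.02 ± 0.54. Over all kept cells only 40, 14, 21, 20 and 64 cells were rich in these precursors, in this order. Few of them could lie among DH31_2-rich neurons in any case, and the part of this scarcity in the falls was not tested. With a threshold of 3 UMIs the call of Trissin was lost, at -2.14 (edgeR adjusted p = 0.48). RYa_2 and RYa_3, which rose in DH31_1-rich neurons, fell here by 2.81 ± 0.30 and 2.92 ± 0.34 and were lower in 5 of 5 libraries. Calcitonin_3 fell by 2.56 ± 0.49, and Calcitonin_2, at 1319 ± 699 against 1513 ± 1332 CPM, was not called, but was called lower with a threshold of 30 UMIs, at -0.63 (edgeR adjusted p = 0.030). None of 8 transmitter genes was called. Gad1 was at 43.1 ± 55.2 against 36.1 ± 6.18 CPM with 155 UMIs in all, of which 114 came from 7 cells with 1000 or more UMIs of DH31_2. Without those cells it fell by 1.77 (edgeR adjusted p = 4.3e-05). GATA2, named for a zinc finger transcription factor, rose by 1.40 ± 0.13 in 5 of 5 libraries. The unnamed gene evm.TU.CTG-827.3 rose by 5.02 ± 0.28, to 92.0 ± 55.0 from 2.91 ± 1.92 CPM.

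Calcitonin_2-rich neurons had the largest number of called genes, with 14.3% of 11922 genes called in edgeR, 740 higher (6.21%) and 964 lower (8.09%), and 15 of 60 other precursors higher and 23 lower. The median over the precursors was -0.39 against -0.014 over all genes. Calcitonin_1 was at 3012, 461 and 843 CPM in rich neurons of the females and 341 and 883.7 CPM in those of the males. In the other neurons it was at 6.23, 19.2, 8.97, 2.12 and 18.9 CPM. The groups did not overlap, and the rise was 6.44 ± 0.40 (log2, SE, edgeR adjusted p = 1.1e-09). Since the proteins of these copies differ at so few residues, reads of one counted for the other cannot be set apart here. In cells rich in both, the UMIs of Calcitonin_1 were 48.1%, 34.6%, 10.1%, 1.42% and 79.2% of those of Calcitonin_2 in female replicates 1, 2 and 3 and male replicates 1 and 2, and those of male replicate 1 include 3 cells with 14169 to 21460 UMIs of Calcitonin_2.

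AT rose by 2.53 ± 0.10 in Calcitonin_2-rich neurons, from 5703 to 10047 CPM in the other neurons to 31057 to 48989 CPM, in 5 of 5 libraries. CCRFa_1 rose by 2.76 ± 0.34, AstCCC, of the allatostatin C family, by 1.93 ± 0.25 and FMRFa_4 by 1.81 ± 0.20, each in 5 of 5. The largest fall was that of CHH/ITP_1 by 7.0 ± 0.13, to 4.30 ± 4.73 from 527 ± 471 CPM. TK, the tachykinin precursor, fell by 5.23 ± 0.43, CCHa_1 by 4.79 ± 0.21 and CCAP_1 by 4.28 ± 0.70. Burs_alpha, a subunit of bursicon, which in insects hardens the cuticle after a moult, had 0 UMIs. Its level in other neurons was 10.3 times a floor of 3 UMIs, which covers counting error only and gives no lower bound. Over all kept cells only 22, 60, 21, 40 and 9 cells were rich in these precursors, in this order. The part of this scarcity in the falls was not tested. DH31_2 fell by 2.69 ± 0.56, although female replicate 1 alone had more in rich than in other neurons, 13190 against 4767 CPM. In that library 1 cell with 45 UMIs of Calcitonin_2 held 9687 UMIs of DH31_2. Over all kept cells, 52 cells held 92.1% of the UMIs of DH31_2, so sums of this gene rest on few cells. By number of cells rich in both genes the direction was the opposite, 92 against 40.3 expected. DH31_1, at 3682 ± 549 against 3736 ± 429 CPM, was not called.

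Of 8 transmitter genes, 4 were called lower in Calcitonin_2-rich neurons and none higher. Tbh and Tdc2, the enzymes of octopamine and tyramine synthesis, fell by 3.28 ± 0.36 and 2.31 ± 0.38, and Ddc and Th, of dopamine synthesis, by 0.82 ± 0.12 and 0.89 ± 0.27, each lower in 5 of 5 libraries. Tbh, Tdc2 and Th had 15 to 32 UMIs in the rich neurons. Trh, of serotonin synthesis, was at 1.67 ± 1.14 against 1.352 ± 0.607 CPM, and Trh, Vmat, Gad1 and VAChT were not called. The call of Th was lost without female replicate 1, female replicate 3 or male replicate 1, at -0.85, -0.84 and -0.67, and in DESeq2. FGRL1_S2, named for a fibroblast growth factor receptor-like protein, rose by 1.04 ± 0.07, and the unnamed genes evm.TU.CTG-1669.7 and evm.TU.CTG-1210.26 by 1.81 ± 0.07 and 1.72 ± 0.07, in 5 of 5. Fer2 fell by 0.70 ± 0.22 in 4 of 5, and its call was lost in DESeq2, in cells of 2000 or more UMIs and without female replicate 1, female replicate 3 or male replicate 1, at -0.53 to -0.84. The neuron markers fell by 0.28 to 0.54.

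**Figure D5:**
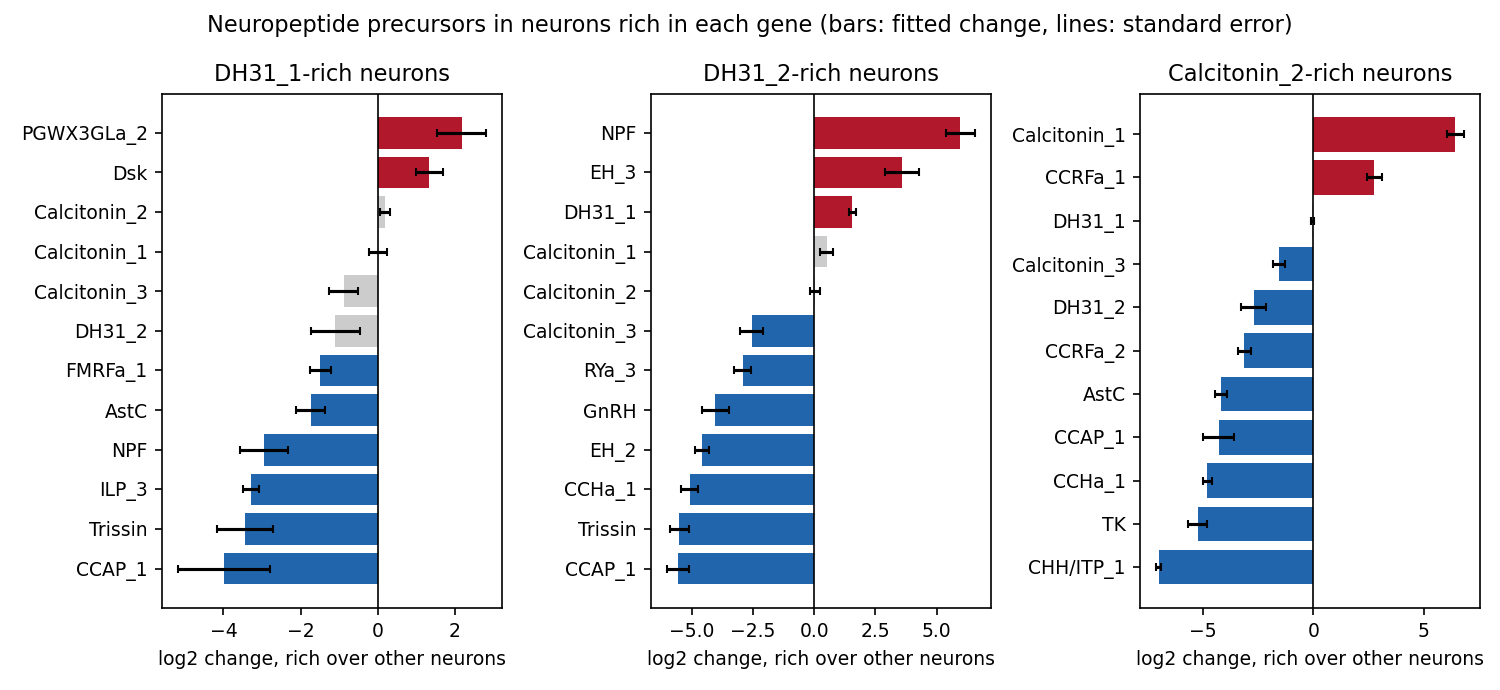
Log2 change of neuropeptide precursors in neurons rich in each gene against other neurons of the same library (bars, edgeR fit over 5 libraries; lines, standard error). Shown are the 8 called precursors with the largest change that had UMIs in rich neurons, and the DH31 and calcitonin-type genes. Red was called higher, blue lower and grey not called. NPF at 5.97 and Calcitonin_1 at 6.44 were the largest rises.

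The members also met in single cells. For each pair, cells with UMIs of both were set against the number expected if both were independent among cells of the same library and the same of 5 depth bins. In the main comparison, with 1 UMI or more of both, the mean log2 ratio over libraries was 0.22 ± 0.069 for DH31_1 with DH31_2, 0.27 ± 0.083 for DH31_1 with Calcitonin_2 and 0.28 ± 0.20 for DH31_2 with Calcitonin_2. The adjusted exact sign-flip permutation p over the 3 pairs was 0.09375, 0.09375 and 0.125. The alternative with 10 or more UMIs of both gave larger ratios. DH31_1 and DH31_2 were both rich in 17, 24 and 57 cells of the female libraries and in 76 and 72 cells of the male libraries, against 7.47, 9.28, 27.7, 32.4 and 23.8 expected. All 5 libraries were above expectation, and the mean log2 ratio was 1.26 ± 0.21 (SD, n = 5, exact sign-flip permutation p = 0.063, two-sided, the smallest that 5 libraries allow, adjusted 0.09375). These cells were 38.4% of the DH31_2-rich and 7.37% of the DH31_1-rich cells. DH31_1 and Calcitonin_2 were both rich in 251 cells against 170 expected, with a mean of 0.54 ± 0.20 and 5 of 5 libraries above. They were 21.6% of the Calcitonin_2-rich and 7.52% of the DH31_1-rich cells.

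DH31_2 and Calcitonin_2 were both rich in 92 cells against 40.3 expected, 0.94 ± 0.62, with 4 of 5 libraries above and 3 cells against 3.39 in female replicate 2. Of these 92 cells 63 lay in cluster 18. With 10 UMIs of both and called doublets left out, a combination added after the data were seen, they were 1.37, 0.59 and 1.03, and 5 of 5 libraries were above for each pair. Doublets that were not called, and free RNA, can also put a pair of genes into 1 barcode, and their part in these ratios was not tested. Beside them, Calcitonin_1 and Calcitonin_2 were both rich in 141 cells against 9.61 expected, which was 86.5% of the Calcitonin_1-rich and 12.1% of the Calcitonin_2-rich cells.

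Outside neurons the highest levels of DH31_2 turned on single cells, in male replicate 2 and female replicate 3. Among cells that were not neurons, glia, hemocytes or fat body, female replicate 3 had 6272 CPM, and 167 CPM without its highest cell. In hemocytes DH31_1 had 211, 296 and 418 CPM in the females and 3491 and 712 CPM in the males, and without its highest cell male replicate 1 had 2074 CPM. DH31_2 had 46.8, 50.5, 19.3 and 86.7 CPM in hemocytes of 4 libraries and 6507 CPM in those of male replicate 2. There 1 cell, a called doublet, held 6085 of 6156 UMIs. Calcitonin_2 stayed between 11.7 and 153 CPM. In glia the means were 1364.9 ± 1249, 267 ± 309 and 363 ± 412 CPM for DH31_1, DH31_2 and Calcitonin_2, against 3719 ± 360, 4638 ± 1537 and 1493 ± 1283 CPM in neurons.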

How the data were processed

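Brains of adult *H. graminicola* were sequenced as 5 droplet libraries (10x Genomics 3' chemistry). The authors ran Cell Ranger on their genome assembly and annotation, and the deposited values are unnormalized UMI counts per gene and barcode. The members and the gene lists were chosen with earlier results of these data known. Totals were 12269605, 18921436, 35943668, 33813415 and 34383766 UMIs, which sets the precision of low levels. Floors (3 counts) cover counting error only, and the intervals of the sex differences come from the fit over libraries.

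Cells with 500 to 60000 UMIs, 200 or more genes, a complexity (log10 genes over log10 UMIs) above 0.7 and less than 40% mitochondrial UMIs were kept. Cluster numbers were spread over 20 neighbours in 40 library-corrected principal components of 2000 variable genes without the 5 DH31 and calcitonin-type genes, and clusters with at least 5 annotated cells were ranked. Doublets were called from 2 simulated doublets per cell. Sums were tested with the quasi-likelihood test of edgeR 4.0.16 under R 4.3.3, after TMM scaling and its default gene filter, with Benjamini-Hochberg adjustment at 0.05. DESeq2 1.42.0 was an alternative. Rich and other neurons came from the same library, so library was a block in those tests by design. In those comparisons CPM leave out the gene that chose the cells. Single values were compared with exact permutation tests. The test was tried on simulated data with known changes. Replicates are pools of brains, and whether their spread is more than technical is not known beyond that.

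Named were the members and relatives, up to 6 called precursors per member with the largest change, up to 10 other genes with the smallest p among those higher in every library, transmitter, factor and class markers, and up to 5 genes with the most similar pattern over clusters. At most 2 genes without a name were given per direction. Further precursors were named after their values were seen. Names came from the study's tables. Alternatives were tried for thresholds, cell limits, doublets, label transfer, normalization, gene filter, test, block and each library left out. No reference genome was used here, and proteins were aligned from the study's predicted sequences.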

Additional observations from a re-analysis of the deposited data

Results flagged for a closer look

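Among 24 groups of 5 libraries checked, 5 had a library far from the others, with a gap over the group's whole range above 0.71. For normally distributed values chance alone gives about 1 in 20. The groups are not independent, since those of the same gene draw on the same counts, and single cells set some levels. Calcitonin_2 stood out in male replicate 1, at 3611 CPM over all kept cells, at 16.8% of cells with a UMI and at 3739 CPM in neurons. The level without the 6 cells of 8317 or more UMIs was 1041 CPM there. In hemocytes DH31_1 was at 3491 CPM in male replicate 1 and DH31_2 at 6507 CPM in male replicate 2, the latter from 1 cell that was a called doublet.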

How the results depend on the processing

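Called genes between the sexes numbered 3, and 36 in DESeq2, 1 without TMM, 7 with any gene that had a UMI, 7 in neurons alone, 5 over all barcodes, 1 with a mitochondrial share under 20%, 46 with a replicate block, and 0 to 2 with a library left out. Whether the replicate numbers pair the samples is not known. The deviations of same-numbered libraries from the mean of their sex correlated at 0.013 and 0.14. With 2 male libraries, the male deviations mirror each other by construction, so these correlations cannot decide it. The sex change of DH31_2 turned to 0.28 without cells of 1000 or more UMIs of a member, to 0.0030 without TMM and to 0.014 over all barcodes, and ranged from -0.52 to 0.34 with a library left out. That of Calcitonin_2 turned to -0.070 and ranged from -0.73 to 1.88. Its log2 ratio of rich shares turned to -0.16 with a threshold of 1% of the cell, and ranged from -0.15 to 0.32. Called genes in rich neurons, without a replicate block, numbered 0 for DH31_1 (1523 with it), 38 for DH31_2 (433) and 105 for Calcitonin_2 (1704). At 30 UMIs they were 939 for DH31_1, and without TMM 1044 for DH31_2. With a library left out they were 1027 to 1403, 259 to 565 and 1170 to 1513, the lowest for DH31_2 being that without male replicate 1. The top cluster level of DH31_1 was 31042 CPM with a mitochondrial share under 20% (13044 to 17982 with a library left out). That of DH31_2 was 911 without precursors among the variable genes, 930 in known cells alone, 222786 with a mitochondrial share under 20% and 1328 without cells of 1000 or more UMIs (148335 to 179553). That of Calcitonin_2 was 9389 to 10317 CPM with a library left out. Over 58 results of named genes in rich neurons, recomputed in 807 combinations of result and alternative, 59 lost the call with the same sign, 30 of them without the block, 1 gained it with the same sign (Calcitonin_2 in DH31_1-rich neurons without female replicate 3), 15 changed sign and all others kept direction and side of the threshold. Of those that changed sign 2 were then called, Calcitonin_2 at 30 UMIs and Gad1 without cells of 1000 or more UMIs, both in DH31_2-rich neurons. Calcitonin_2 in DH31_2-rich neurons was -0.63 at 30 UMIs, -0.044 in cells of 2000 or more UMIs, -0.014 with any gene, -0.066 without TMM, -0.083 without the block, and -0.30 to 0.33 with a library left out. Gad1 there was -0.030 in cells of 2000 or more UMIs, -1.77 without cells of 1000 or more UMIs, -0.49 in DESeq2, -0.072 without TMM, and -0.39 to 0.46 with a library left out. DH31_1 in Calcitonin_2-rich neurons was -0.13 to 0.065 with a library left out, above 0 without male replicate 1 or 2 (0.065 and 0.0072). The causes were not tested.

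The limits are these. A replicate is a pool of brains, and 3 against 2 libraries cannot pass 0.05 in a permutation test. Cluster numbers were at hand here for cells of 1 library alone, so transfer to the others was not measured. Depth limits the calling of rich cells at 10 UMIs.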
